A study of Mus musculus with 17 samples.

Results

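The endothelial marker set described here holds 10 genes of the liver vasculature, taken by gene symbol from RNA-seq gene counts of mouse liver and liver tumor. It has 5 markers of the liver sinusoidal endothelium (Stab1, Stab2, Lyve1, Clec4g and Gpr182), 2 markers of all endothelium (Kdr and Pecam1) and 3 markers of capillary or larger-vessel endothelium (Cd34, Vwf and Plvap). They are 10 of the 19151 genes counted under high-fat diet (HFD) and of the 24233 counted under Western diet (WD). All 10 were listed in both tables and had enough counts to be tested in every comparison. The samples were WT livers (n = 4) and livers of mice lacking NgBR in hepatocytes (N-LKO, n = 4) after 16 weeks of HFD, and WT livers (n = 3), N-LKO livers (n = 3) and N-LKO tumors (n = 3) after 16 weeks of WD. All were male C57BL6 mice that had been raised on chow, and their age was not given in the labels. In N-LKO mice both copies of Nus1, the gene for NgBR, carry loxP sites and are cut by Cre recombinase under the albumin promoter, which is active in hepatocytes, so the endothelial cells of these livers keep the gene. Both diets are rich in fat, and WD is also rich in cholesterol. The labels do not say whether a tumor and an N-LKO liver came from the same mouse.

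Liver sinusoids are lined by endothelial cells with open pores and no continuous basement membrane. Stab1 and Stab2 encode scavenger receptors that clear modified lipoproteins and matrix fragments from blood, and Stab2 also clears hyaluronan. Lyve1 encodes a hyaluronan receptor shared with lymphatic vessels, Clec4g a C-type lectin and Gpr182 a receptor that removes chemokines. Kdr encodes the main receptor of vascular endothelial growth factor (VEGF), and Pecam1 an adhesion protein of endothelial junctions. Cd34, a sialomucin of most other capillaries, is scarce on healthy sinusoids. Vwf, the multimeric clotting protein, is found in larger vessels, and Plvap builds the diaphragms that close endothelial pores. Loss of the sinusoidal markers with gain of capillary markers is known as capillarization and is a familiar feature of fibrotic liver and of hepatocellular carcinoma vessels.

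The sequence before the transcription start is shown for Cd34 and Clec4g, the capillary and sinusoidal markers that changed in tumors, and for Stab2, which changed under HFD. RefSeq promoter windows (GRCm38.p6) were matched for 5 of the 10 members, Cd34, Clec4g, Kdr, Stab1 and Stab2. The stretches lie outside annotated exons, at chr1:194938571-194938817 on the plus strand, chr8:3720655-3720901 on the minus strand and chr10:87008026-87008192 on the minus strand. Capitals mark CAGGAA, a short form of the site bound by ETS factors, on either strand, so that a match on the other strand reads TTCCTG.
Cd34: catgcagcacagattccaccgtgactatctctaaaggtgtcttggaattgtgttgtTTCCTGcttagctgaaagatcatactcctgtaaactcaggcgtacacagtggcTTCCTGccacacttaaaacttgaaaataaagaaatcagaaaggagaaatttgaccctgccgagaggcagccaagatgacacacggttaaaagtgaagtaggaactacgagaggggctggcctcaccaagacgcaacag
Clec4g: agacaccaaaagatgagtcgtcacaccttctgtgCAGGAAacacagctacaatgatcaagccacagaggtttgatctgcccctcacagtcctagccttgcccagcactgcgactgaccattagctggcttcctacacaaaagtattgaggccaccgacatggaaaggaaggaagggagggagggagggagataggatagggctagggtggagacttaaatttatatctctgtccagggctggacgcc
Stab2: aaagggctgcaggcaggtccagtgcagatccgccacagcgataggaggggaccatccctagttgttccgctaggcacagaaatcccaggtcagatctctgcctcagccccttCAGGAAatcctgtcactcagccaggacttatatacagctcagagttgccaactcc
Searched on both strands in the part of each window before the start, cut to the same length for every gene, CAGGAA was present in 4 of the 5 members' windows and in 25.5% of all 32851 windows. GATAA, a short form of the site bound by GATA factors, was present in 0 of the 5 and in 22.4% of all windows. Other forms of either site were not searched, so a window without these letters may still hold one. Both searches describe letters only, and binding was not measured.

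Total counts per library were 9096110 to 12215784 under HFD and 15494731 to 20200618 under WD. Nus1, the deleted gene, stood at 88.2 ± 5.90 CPM (counts scaled to the library total, mean ± SD, n = 4) in HFD WT livers and at 35.1 ± 3.99 (n = 4) in HFD N-LKO livers. Under WD it stood at 94.5 ± 5.57, 46.7 ± 4.75 and 35.8 ± 7.59 CPM in WT livers, N-LKO livers and tumors (n = 3 each), and no N-LKO library reached the level of a WT library. Tumor replicate 1 stood nearer to liver than the other 2 tumors for Cd34, Pecam1, Clec4g, Stab2 and Gpr182. Without it the genes past the threshold between tumor and N-LKO liver went from 89 to 2193, and without any 1 of the other WD libraries they went to between 3 and 61. Without WT replicate 2 those between tumor and WT liver went from 2653 to 569. Member calls and list counts in the tumor comparisons are also given without tumor replicate 1 or WT replicate 2. The 2 tables were scaled separately, so no level under HFD is set against a level under WD.

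The members are listed by level, in CPM per kilobase of transcript, since only values per length can be set between genes. In HFD WT livers Clec4g was highest at 14.3 ± 1.90 (SD, n = 4), followed by Plvap at 7.98 ± 1.76 and Kdr at 5.47 ± 0.554, with no overlap between neighbors in this order. Pecam1, Stab2, Lyve1 and Gpr182 followed within 3.06 to 3.61 on average, and each overlapped the next. Stab1 stood at 1.93 ± 0.253. Cd34 at 0.259 ± 0.176 and Vwf at 0.156 ± 0.0660 were lowest, and their ranges overlapped. The livers thus carried the defining sinusoidal markers, with Cd34 and Vwf close to the bottom of what could be counted, at 1 to 10 and 6 to 18 counts per HFD WT library. In WD WT livers Plvap (25.9 ± 3.04, n = 3) and Clec4g (21.7 ± 3.57) led with overlapping ranges, Kdr and Stab2 followed at 12.0 ± 1.34 and 11.6 ± 1.43, and Vwf (1.35 ± 0.384) and Cd34 (0.869 ± 0.355) were again lowest. In tumors the order differed. Plvap was at 26.1 ± 7.20 and Pecam1 at 18.1 ± 5.57, while Clec4g at 8.26 ± 5.81, Lyve1 at 7.99 ± 1.72, Cd34 at 6.82 ± 2.87 and Stab1 at 6.61 ± 0.947 overlapped each in turn.

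Under HFD, the sinusoidal markers Stab2 and Gpr182 fell in N-LKO liver, 1.53-fold and 1.45-fold, while Cd34 and Vwf had higher means that did not pass the test. The comparison asked how the endothelium of a steatotic liver looks when hepatocytes lack NgBR. Stab2 (chr10:86841198-87008025, minus strand, 69 exons) stood at 29.6, 32.1, 24.9 and 27.0 CPM in WT livers and at 15.6, 18.6, 15.7 and 24.2 in N-LKO livers. No N-LKO liver reached a WT liver, and replicate 4 came closest. The log2 fold change was -0.61 ± 0.14 (SE), with an adjusted p of 0.0355 from edgeR's quasi-likelihood test. In bulk tissue, fewer cells of a type and less RNA per cell cannot be told apart, here and for every other member.

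Gpr182 (chr10:127747276-127751732, minus strand, 2 exons) stood at 13.1, 13.3, 9.90 and 12.0 CPM in WT livers and at 7.95, 7.91, 8.05 and 9.44 in N-LKO livers. The groups did not overlap, and the gap between the lowest WT and the highest N-LKO liver was small. Its log2 fold change was -0.53 ± 0.13, with an adjusted p of 0.0419. Clec4g (chr8:3707064-3720651, minus strand, 5 exons) stood at 18.4, 24.3, 18.6 and 20.98 CPM in WT livers and at 13.4, 14.01, 15.02 and 17.2 in N-LKO livers. Its groups did not overlap either. Its log2 fold change of -0.47 ± 0.12 had an adjusted p of 0.05001 and did not pass.

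Stab1, the sister scavenger receptor of Stab2, stood at 16.0, 16.3, 12.5 and 16.9 CPM in WT and at 10.02, 10.6, 12.1 and 13.3 in N-LKO livers, with a log2 fold change of -0.43 ± 0.13 and an adjusted p of 0.0839. Its groups overlapped through WT replicate 3 alone. Lyve1 went the other way, at 15.8, 9.94, 5.23 and 8.15 CPM in WT and 12.1, 9.56, 12.1 and 9.12 in N-LKO livers. The WT livers alone spanned 5.23 to 15.8 CPM, and the log2 fold change was 0.12 ± 0.26 with an adjusted p of 0.822.

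**Figure D1:**
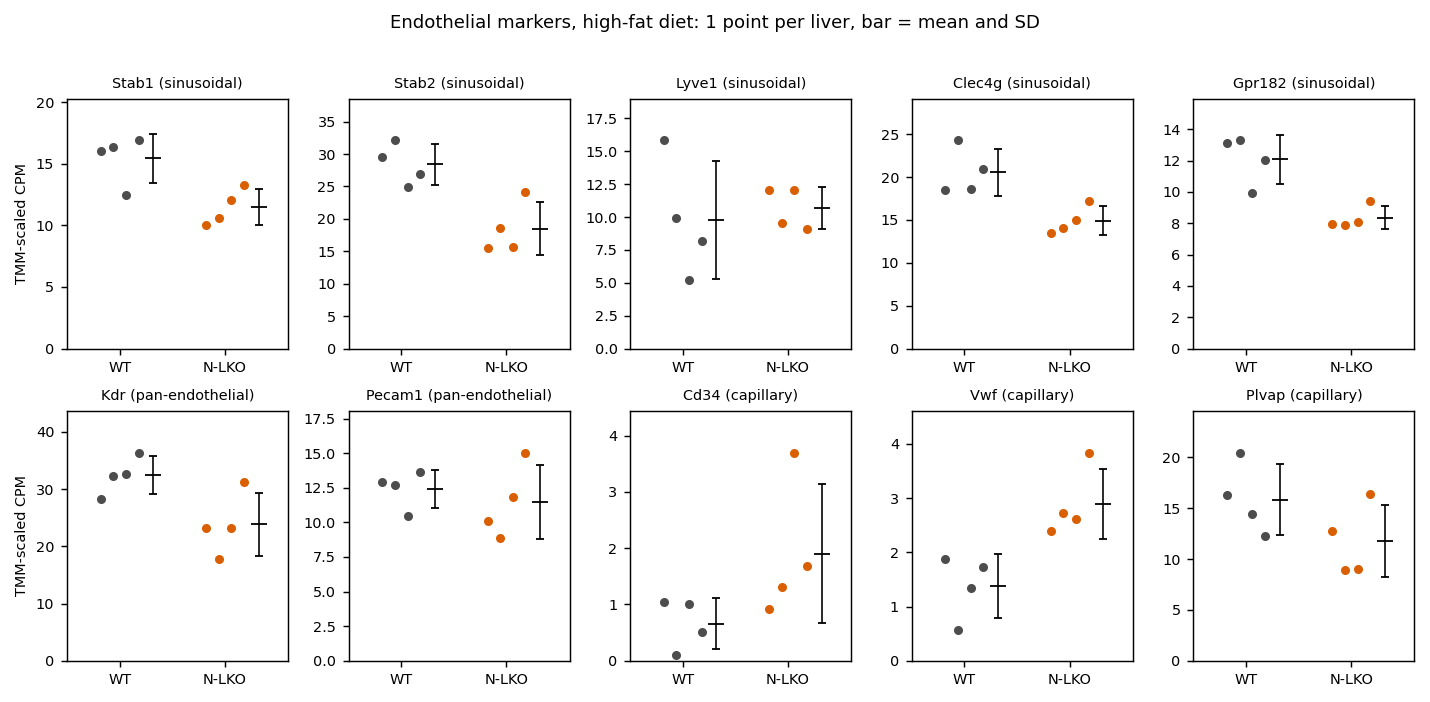
CPM of the 10 endothelial markers in HFD livers, scaled by the trimmed mean of M values (TMM), with 1 point per liver (WT in gray, N-LKO in orange, n = 4 each) and bars for the mean and SD. Stab2, Clec4g and Gpr182 were lower in all 4 N-LKO livers than in any WT liver, and Vwf was higher in all 4.

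Of the markers of all endothelium, Kdr stood at 28.3, 32.2, 32.7 and 36.4 CPM in WT and at 23.2, 17.7, 23.2 and 31.2 in N-LKO livers, a log2 fold change of -0.44 ± 0.15 with an adjusted p of 0.107. Pecam1 ranged from 10.45 to 13.6 CPM in WT and from 8.90 to 15.04 in N-LKO livers, a log2 fold change of -0.12 ± 0.16 with an adjusted p of 0.719. Both sets of values overlapped, that of Pecam1 almost wholly.

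The capillary markers did not move as a group. Vwf stood at 1.88, 0.574, 1.33 and 1.73 CPM in WT and at 2.40, 2.72, 2.61 and 3.84 in N-LKO livers. It was higher in every N-LKO liver, at 24 to 48 counts against 6 to 18, and its log2 fold change of 1.08 ± 0.33 had an adjusted p of 0.0812. Cd34 stood at 1.04, 0.0956, 1.00 and 0.509 CPM in WT and at 0.911, 1.32, 3.70 and 1.68 in N-LKO livers. The WT liver with 0.0956 CPM held 1 count, and N-LKO replicate 3 was highest. The log2 fold change was 1.49 ± 0.57 with an adjusted p of 0.142. Plvap ranged from 12.2 to 20.5 CPM in WT and from 8.90 to 16.4 in N-LKO livers, a log2 fold change of -0.42 ± 0.21 with an adjusted p of 0.256. The gene Gtpbp3 overlaps Plvap on the other strand, and their reads may not be separable.

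Thus 2 of the 10 members passed as lower and 0 as higher under HFD, where 2.29% of all 13460 genes tested passed as lower and 2.56% as higher, and 7 members had an unadjusted p under 0.05, as 3053 of all genes did. With DESeq2, 3 members passed as lower (Stab2, Clec4g and Gpr182) and Vwf as higher, against 3.47% and 3.96% of all genes. Groups did not overlap for 3 members on the lower and 1 on the higher side, against 7.4% and 7.39% of all genes. The median log2 fold change of the members was -0.42, and that of all genes -0.01. Both calls were close to the threshold. Stab2 kept its call without WT replicate 3 or N-LKO replicate 4 (adjusted p of 0.0375 and 0.0160) and missed it without any one of the other 6 livers (0.0562 to 0.104), and Gpr182 kept it only without WT replicate 3 (0.0276, against 0.0557 to 0.118), while Clec4g passed without WT replicate 1 (0.0477), Stab1 without WT replicate 3 (0.0461) and Kdr without N-LKO replicate 4 (0.0400). Under HFD the log2 fold change also went with transcript length (Spearman's rho of -0.37 across 13092 genes), and with an offset for length and GC content the adjusted p was 0.0856 for Stab2, 0.0736 for Gpr182 and 0.0442 for Clec4g.

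Other endothelial genes were read by list. Of 10 further sinusoidal genes, 3 fell in HFD N-LKO liver and 0 rose: Ehd3, an endocytic protein (log2 fold change of -0.73 ± 0.15, adjusted p of 0.0201), Mrc1, the mannose receptor also carried by macrophages (-0.50 ± 0.12, 0.0403), and Dnase1l3, a secreted nuclease (-0.61 ± 0.15, 0.0432). Of all genes, 2.29% passed as lower and 2.56% as higher. Ctsl of the same list went the other way, at 399 ± 27.9 CPM in WT and 523 ± 66.7 in N-LKO livers (n = 4 each). Its groups did not overlap, and its adjusted p was 0.0555. The list had a median log2 fold change of -0.30, against -0.01 over all genes. Of the VEGF and angiopoietin ligands and co-receptors, 2 of 9 tested fell, Vegfa, the main ligand of Kdr (92.5 ± 6.39 CPM in WT and 67.9 ± 3.02 in N-LKO livers, n = 4 each, adjusted p of 0.0139), and Nrp1, its co-receptor (66.5 ± 11.4 and 41.5 ± 9.64, 0.0398). None of 16 further pan-endothelial genes, 11 basement membrane and activated vessel genes, 5 endothelial signals to hepatocytes, 5 periportal and arterial genes or 9 endothelial transcription factors passed with edgeR. Unadjusted p was under 0.05 for 4, 1, 2, 0 and 0 of them in that order and for 3053 of all 13460 genes, and DESeq2 called 1, 0, 1, 0 and 0.

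Markers of other liver cells moved in the same livers. Of 6 Kupffer cell markers, 5 fell (Clec4f, Folr2, Marco, Timd4 and Vsig4), and their summed level was 106 to 162.2 CPM in WT and 50.4 to 105 in N-LKO livers. The portal fibroblast and mesothelial markers, of cells that can carry Cd34, summed to 2.68 to 5.21 CPM in WT and 8.98 to 14.4 in N-LKO livers, where Dpt was the only one of the list with enough counts to test and rose. Platelet markers, which would travel with Vwf, summed to 1.15 to 2.01 and 1.63 to 3.20 CPM. The cholangiocyte marker Spp1 rose, and 0 of 6 leukocyte, 7 stellate and 6 hepatocyte markers passed with edgeR (unadjusted p under 0.05 for 5, 5 and 1, DESeq2 calls of 0, 2 and 0). Red blood cell markers summed to 106 to 221 CPM in WT and 188 to 449 in N-LKO livers, and 0 of 4 passed with edgeR or DESeq2 (median log2 fold change of 0.94, unadjusted p under 0.05 for 3). Among all genes, 2.29% passed as lower and 2.56% as higher with edgeR. No marker was at 0 in all livers of a group. The part of these cells in the fall of Stab2 and Gpr182 was not tested.

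Under WD, no endothelial marker passed the test between N-LKO and WT liver, and Cd34 was the member with the largest difference. The lowest adjusted p of any gene was 0.150. Nus1, the deleted gene, thus did not pass either, at 94.5 CPM in WT and 46.7 in N-LKO livers on average. A missing call in this comparison therefore does not show a lack of change. Cd34 (chr1:194938819-194961279, plus strand, 8 exons) stood at 2.27, 1.29 and 3.10 CPM in WT and at 6.36, 4.18 and 5.74 in N-LKO livers. All 3 N-LKO livers lay above all 3 WT livers. Its log2 fold change of 1.28 ± 0.40 had an unadjusted p of 0.00883 and an adjusted p of 0.353. Plvap moved the opposite way, at 49.4, 46.7 and 58.2 CPM in WT and at 41.7, 36.3 and 31.8 in N-LKO livers. Its groups did not overlap, and its log2 fold change of -0.49 ± 0.21 had an adjusted p of 0.389. Vwf stood at 9.27, 10.8 and 15.7 CPM in WT and at 20.8, 13.5 and 16.2 in N-LKO livers, a log2 fold change of 0.49 ± 0.24 with an adjusted p of 0.422.

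The sinusoidal markers were close to level between the WD livers. Stab1 stood at 53.8, 52.0 and 58.9 CPM in WT and at 58.6, 55.1 and 52.2 in N-LKO livers, and the 95% interval of its log2 fold change ran from -0.29 to 0.31. Stab2 stood at 90.9, 86.3 and 109 CPM in WT and at 101, 89.6 and 99.7 in N-LKO livers, with an interval from -0.39 to 0.44. These intervals leave out a change as large as 1.5-fold for both genes. Gpr182 was at 25.2, 22.2 and 27.0 against 21.8, 17.5 and 22.2 CPM, a log2 fold change of -0.28 ± 0.15 with an adjusted p of 0.470. For Clec4g and Lyve1 the intervals were wider, at -1.02 to 0.73 and -0.76 to 0.90, and Lyve1 ran from 9.30 to 29.5 CPM within the N-LKO livers alone. Clec4g ran from 26.8 to 36.9 CPM in WT and from 24.2 to 32.3 in N-LKO livers. The fit also held the tumors, where Clec4g ran from 5.16 to 21.3 CPM, so their spread enters the intervals and p-values between livers. Kdr and Pecam1 had log2 fold changes of -0.18 ± 0.17 and 0.04 ± 0.24.

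In all, 0 of the 10 members and 0% of 17829 genes passed with edgeR in WD N-LKO against WT liver, and 2 members (Cd34 and Plvap) and 2212 genes had an unadjusted p under 0.05. DESeq2 and limma-voom also called 0 members, and DESeq2 called 100 genes. Groups did not overlap for 1 member on each side, against 14.3% of genes on the higher and 13.6% on the lower side. The portal fibroblast and mesothelial markers summed to 6.58 to 18.2 CPM in WT and 21.2 to 29.8 in N-LKO livers, so that they moved with Cd34 in these livers as well, with Clec3b at 0 in all WT livers. Their part in the Cd34 difference was not tested. None of the 7 endothelial lists had a gene past the threshold with edgeR, and DESeq2 called Col15a1, a basement membrane collagen (7.71 ± 1.32 CPM in WT and 17.3 ± 1.76 in N-LKO livers, n = 3 each, edgeR adjusted p of 0.151).

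Tumors set the widest contrast. Against WT liver, Cd34 rose 7.79-fold and Pecam1 2.12-fold, and Clec4g fell 2.63-fold, while Stab1, Lyve1, Kdr, Vwf and Plvap had log2 fold changes of -0.05 to 0.21 that did not pass. Cd34 stood at 9.15, 23.1 and 20.02 CPM in tumors, against 1.29 to 3.10 in WT livers and 4.18 to 6.36 in N-LKO livers. Every tumor lay above every liver, and tumor replicate 1 was well below the other tumors. The log2 fold change against WT liver was 2.96 ± 0.40 with an adjusted p of 0.00602, and it passed in all 18 alternatives. Against N-LKO liver it was 1.68 ± 0.37 with an adjusted p of 0.0775.

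Pecam1 (chr11:106654217-106750628, minus strand, 16 exons) stood at 29.3, 26.9 and 32.1 CPM in WT livers, at 36.3, 22.9 and 31.4 in N-LKO livers and at 41.5, 79.1 and 66.6 in tumors. All tumors lay above all livers, replicate 1 by the least. Its log2 fold change was 1.08 ± 0.24 against WT liver (adjusted p of 0.0194) and 1.05 ± 0.24 against N-LKO liver (0.0798). Kdr did not share this rise. It stood at 64.1, 79.8 and 70.0 CPM in WT livers, at 59.4, 64.7 and 64.2 in N-LKO livers and at 53.9, 79.9 and 85.0 in tumors, with a log2 fold change of 0.03 ± 0.17 against WT liver.

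Clec4g stood at 29.996, 36.9 and 26.8 CPM in WT livers, at 32.3, 24.2 and 28.3 in N-LKO livers and at 21.3, 5.16 and 9.28 in tumors. The tumors were all below the livers, and replicate 1 again lay nearest to them. Its log2 fold change was -1.39 ± 0.40 against WT liver (adjusted p of 0.0446) and -1.25 ± 0.40 against N-LKO liver (0.151). Stab2 stood at 93.6, 58.7 and 61.4 CPM in tumors, against 86.3 to 109 in WT livers. Replicates 2 and 3 were below every liver and replicate 1 was among them, and the log2 fold change of -0.42 ± 0.19 had an adjusted p of 0.149. Gpr182 stood at 21.1, 16.5 and 17.9 CPM in tumors, all below the 22.2 to 27.0 of WT livers, a log2 fold change of -0.42 ± 0.15 with an adjusted p of 0.0855. Stab1 was at 54.9, 59.2 and 44.5 and Lyve1 at 28.9, 20.6 and 19.9 CPM in tumors, and both overlapped the WT livers or lay near them, so the 5 sinusoidal markers had differing values.

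**Figure D2:**
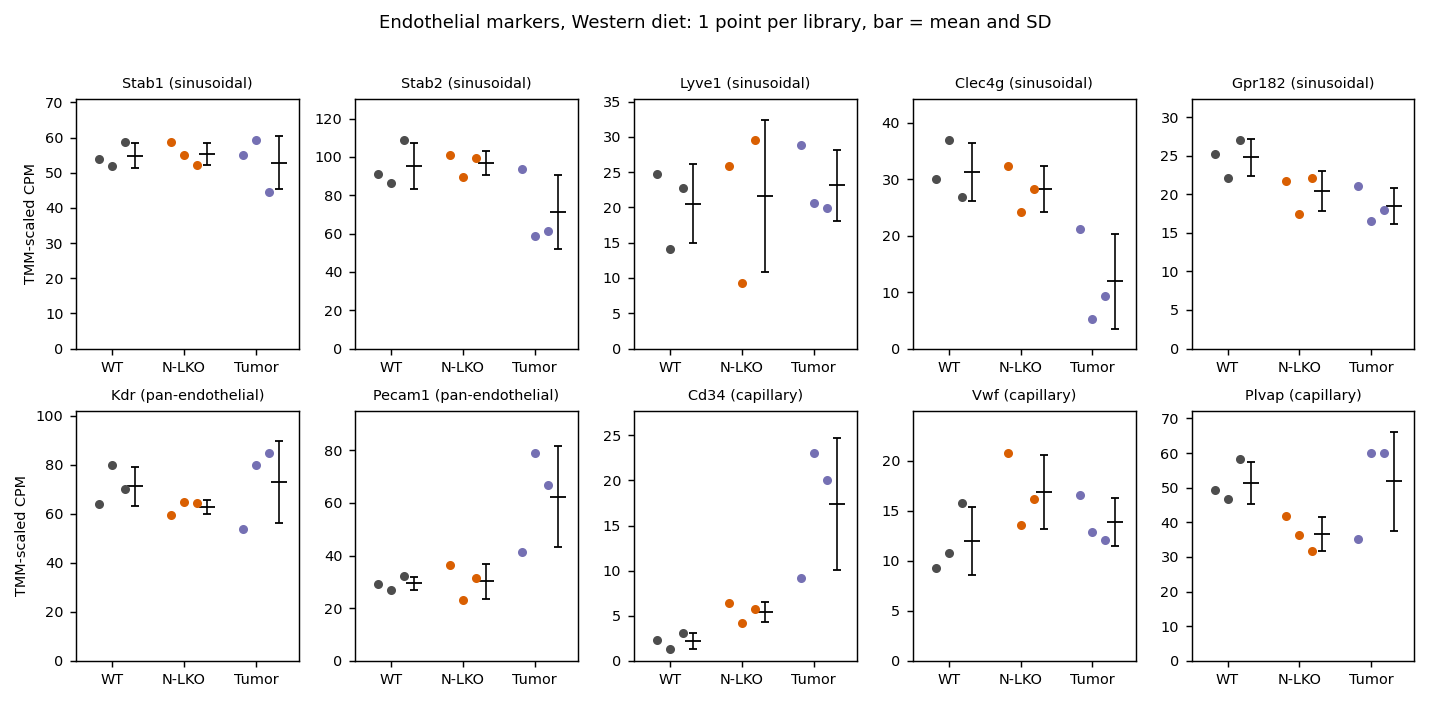
CPM (TMM-scaled) of the 10 endothelial markers under WD, with 1 point per library (WT liver in gray, N-LKO liver in orange, tumor in purple, n = 3 each, replicates 1 to 3 from left to right) and bars for the mean and SD. Cd34 and Pecam1 were higher and Clec4g lower in all 3 tumors than in any liver, with tumor replicate 1 nearest to the livers each time.

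The other capillary markers did not follow Cd34. Vwf was at 16.6, 12.9 and 12.1 CPM in tumors, a log2 fold change of 0.21 ± 0.24 against WT liver and of -0.28 ± 0.23 against N-LKO liver. Plvap was at 35.3, 60.0 and 60.1 CPM in tumors. Its log2 fold change was 0.01 ± 0.21 against WT liver, and its direction there changed with the scaling, being negative with DESeq2 size factors. Against N-LKO liver it was 0.50 ± 0.21 with an adjusted p of 0.237.

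Against WT liver, 2 members passed as higher and 1 as lower, where 8.08% of all genes passed as higher and 6.8% as lower, and 5 members had an unadjusted p under 0.05, as 5803 of all 17829 genes did. Groups did not overlap for 2 members on the higher and 2 on the lower side (17.7% and 16.4% of all genes). Without tumor replicate 1, 5 members passed, Cd34 and Pecam1 as higher and Clec4g, Stab2 and Gpr182 as lower (10.8% and 10.1% of all genes). Without WT replicate 2 the sole member that passed was Cd34 (1.81% of genes higher and 1.26% lower). Pecam1 lost its call without WT replicate 1 (adjusted p of 0.0583), WT replicate 2 (0.0783) or tumor replicate 2 (0.0548), and Clec4g without any single library (0.0601 to 0.136) other than tumor replicate 1 (0.00142), where its log2 fold change was -2.12.

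Against N-LKO liver, which shares the tumor libraries with the comparison above, 0 members passed with edgeR and 5 had an unadjusted p under 0.05, as 3256 of all 17829 genes did. Of all genes, 0.437% passed as higher and 0.0617% as lower. limma-voom called 0 members, and DESeq2 called Cd34 and Pecam1 as higher and Clec4g as lower (3.43% and 2.3% of all genes). Without tumor replicate 1, edgeR called 5 members, Cd34 (log2 fold change of 1.99, adjusted p of 0.00378), Pecam1 (1.27, 0.00417) and Plvap (0.71, 0.0174) as higher and Clec4g (-1.98, 0.00296) and Stab2 (-0.69, 0.0160) as lower, against 6.4% and 5.59% of all genes. Groups did not overlap for 2 members on the higher and 1 on the lower side (11.5% and 11.6% of all genes).

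**Figure D3:**
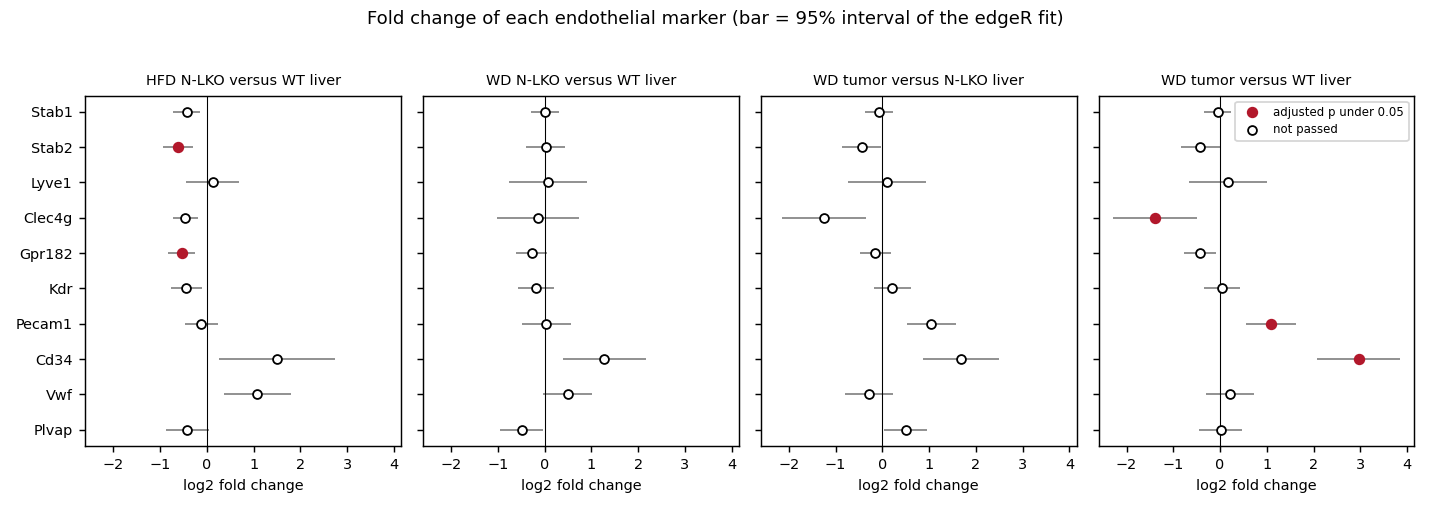
Log2 fold change (x axis) of each endothelial marker (y axis) in the 4 comparisons, with the 95% interval of the edgeR fit and a filled red point where the adjusted p was under 0.05. Cd34 lay to the right of 0 in all 4 panels, at 1.49, 1.28, 1.68 and 2.96, and passed in the last alone.

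Some other vessel genes rose in the tumors. Of 18 further pan-endothelial genes, 7 passed as higher and 0 as lower against WT liver, with a median log2 fold change of 0.76 against 0.04 over all genes. Emcn, a sialomucin of venous and capillary endothelium, stood at 3.08 ± 0.492 CPM in WT livers, 2.48 ± 0.840 in N-LKO livers and 10.4 ± 3.86 in tumors (n = 3 each), and it passed against both (adjusted p of 0.0138 and 0.0370). Cdh5, the cadherin of endothelial junctions, stood at 45.5 ± 4.16 CPM in WT livers and 74.6 ± 20.5 in tumors (adjusted p of 0.0325). Mmrn2, Esam, Ecscr and Icam2 were also among the genes that passed, with log2 fold changes of 0.81 to 1.29. Against N-LKO liver the same list had 1 call. Among all genes, 8.08% passed as higher and 6.8% as lower against WT liver, and 0.437% and 0.0617% against N-LKO liver. Without tumor replicate 1 the calls were 14 against WT and 9 against N-LKO liver, and without WT replicate 2 the calls against WT liver went from 7 to 0 and the 1 against N-LKO liver to 0. The shares of all genes called higher and lower without tumor replicate 1 were 10.8% and 10.1% against WT liver. Against N-LKO liver they were 6.4% and 5.59%. Without WT replicate 2 they were 1.81% and 1.26% against WT liver.

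Of 14 basement membrane and activated vessel genes tested, 7 rose against WT liver. Col15a1 stood at 7.71 ± 1.32 CPM in WT livers, 17.3 ± 1.76 in N-LKO livers and 34.5 ± 6.69 in tumors, with a log2 fold change of 2.16 ± 0.19 against WT liver and an adjusted p of 0.00124. Esm1, a proteoglycan secreted by sprouting endothelium, stood at 3.44 ± 1.76, 2.44 ± 1.53 and 31.6 ± 21.8 CPM in the same order, so that the tumors varied widely. Col4a1, Col4a2, Ednrb and Aplnr were among the others, with Aplnr at 0.122 ± 0.156 CPM in WT livers and 2.85 ± 2.35 in tumors. Of 8 periportal and arterial genes, Dll4, Efnb2 and Gja5 rose, at log2 fold changes of 1.48 ± 0.34, 1.87 ± 0.37 and 3.13 ± 0.39. Without WT replicate 2, 2 of the basement membrane list (Col15a1 and Ednrb) and 1 of the arterial list (Gja5) passed, and without tumor replicate 1, 8 and 3 did. The share of all genes called higher against WT liver was 8.08%. It was 1.81% without WT replicate 2 and 10.8% without tumor replicate 1.

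Of 10 further sinusoidal genes, 3 fell and 0 rose against WT liver, Dnase1l3 (50.3 ± 3.55 CPM in WT livers and 23.3 ± 11.8 in tumors, adjusted p of 0.0332), Ehd3 (70.3 ± 8.99 and 45.0 ± 8.22, 0.0407) and Gata4, the transcription factor of sinusoidal endothelium (17.9 ± 1.48 and 9.92 ± 2.87, 0.0259). The other 7 did not pass, with log2 fold changes from -0.53 for Oit3 to 0.73 for Flt4. Without WT replicate 2 none of the 10 passed, and without tumor replicate 1, 4 fell and Flt4 rose. Bmp2, an endothelial signal to hepatocytes, fell from 18.5 ± 3.32 to 8.31 ± 4.18 CPM (adjusted p of 0.0306), 1 of 6 genes on that list. Of the VEGF and angiopoietin list, Angpt2 rose (log2 fold change of 1.27 ± 0.38, adjusted p of 0.0494) and Vegfb fell (-0.83 ± 0.22, 0.0311), 2 of 12 tested. Meis2 and Sox17 rose among 12 endothelial transcription factors, of which Gata4 was the single one to fall. Without WT replicate 2, Vegfb passed and Bmp2, Angpt2, Meis2, Sox17 and Gata4 did not. Without tumor replicate 1 all of these passed other than Meis2. The shares of all genes called higher and lower against WT liver were 8.08% and 6.8%. They were 1.81% and 1.26% without WT replicate 2, and 10.8% and 10.1% without tumor replicate 1. With lists this short, 1 or 2 calls lie near such shares.

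Kupffer cell markers were lower in the tumors as well, with 4 of 6 past the threshold against WT liver (Cd5l, Folr2, Marco and Timd4) and a summed level of 400 to 580 CPM in WT livers, 336 to 398 in N-LKO livers and 98.2 to 318 in tumors. The portal fibroblast and mesothelial markers summed to 14.7 to 19.0 CPM in tumors, below the 21.2 to 29.8 of N-LKO livers. Dpt alone made up 9.99 ± 3.53 CPM of the tumor sums. Gene by gene the list went the other way, with a median log2 fold change of 0.80 in tumors against N-LKO liver. In that comparison 0 of its 6 tested genes passed with edgeR. Cd34 was higher in the tumors than in those livers. Platelet markers summed to 3.71 to 6.14 CPM in WT livers and 4.22 to 7.38 in tumors. Red blood cell markers summed to 388 to 734 CPM in WT livers, 228 to 346 in N-LKO livers and 378 to 492 in tumors, and 0 of 4 passed with edgeR in N-LKO against WT liver, tumor against N-LKO liver or tumor against WT liver (unadjusted p under 0.05 for 3, 2 and 1, DESeq2 calls of 0, 0 and 1). Markers of lymphatic endothelium, which carries Lyve1, summed to 416 to 547 CPM in WT livers and 334 to 387 in tumors, of which Prox1, a gene that hepatocytes also express, made up 267 ± 82.5 and 236 ± 10.9 CPM (SD, n = 3 each). Reln, which is also on the stellate list, made up 223 ± 40.0 and 116.2 ± 40.3 CPM of the same sums. Hnf4a and Ttr fell among 6 hepatocyte markers, Itgax and Ptprc rose among 7 leukocyte markers, Reln fell among 7 stellate markers, and Sox9 and Spp1 rose among 5 cholangiocyte markers. Without WT replicate 2, 1 Kupffer cell marker (Cd5l) passed, Itgax, Sox9 and Spp1 passed, and Ptprc, Reln, Hnf4a and Ttr did not. Without tumor replicate 1, 6 Kupffer cell markers passed, and of the others named Ptprc alone did not. Among all genes, 8.08% passed as higher and 6.8% as lower against WT liver. These shares were 1.81% and 1.26% without WT replicate 2, and 10.8% and 10.1% without tumor replicate 1. The share of each cell type in the tumor samples was not measured, and its part in these differences was not tested.

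An interaction term fitted to all 14 livers asked whether the diets differed in their genotype effect. None of the 10 members passed with edgeR, where 1.62% of 15850 genes did, and 2 members, Stab1 and Stab2, had an unadjusted p under 0.05, as 3171 of all genes did. The Stab2 effect of N-LKO was -0.61 under HFD and 0.02 under WD on the log2 scale. The difference of the effects was 0.66 ± 0.20 with an adjusted p of 0.0947, and that of Stab1 was 0.46 ± 0.16 with an adjusted p of 0.137. DESeq2 called Stab2 alone among the members (adjusted p of 0.0383, where 6.19% of genes passed), limma-voom called 0, and without HFD N-LKO replicate 4 edgeR called Stab2 (0.0421). For Gpr182 and Clec4g the difference was 0.28 ± 0.18 and 0.34 ± 0.19. Cd34 was higher in N-LKO liver on average under both diets, and its effects differed by -0.20 ± 0.69, an interval too wide to tell them apart. The red blood cell markers, higher on average in N-LKO liver under HFD and lower under WD, had a median difference of -1.76 in this fit, where 0 of 4 passed with edgeR and 1 with DESeq2 (unadjusted p under 0.05 for 3).

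The balance of the 2 marker classes was described as the mean log2(CPM + 0.5) of the 5 sinusoidal genes minus that of the 3 capillary genes, with no test, since the genes were chosen with results of these data known. Under HFD it was 2.22, 2.93, 1.91 and 2.40 in WT livers and 1.67, 1.67, 1.35 and 1.39 in N-LKO livers. Every N-LKO liver lay below every WT liver, at a mean of 1.52 ± 0.173 against 2.37 ± 0.427 (SD, n = 4 each). Of the capillary genes, Cd34 and Vwf enter these values at 1 to 10 and 6 to 18 counts per HFD WT library. The WT liver at 2.93 held 1 count of Cd34 and 6 of Vwf. Plvap, the capillary gene with the most counts, was lower on average in N-LKO livers (11.8 against 15.8 CPM). Under WD it was 1.84, 1.85 and 1.44 in WT livers, 1.16, 1.13 and 1.42 in N-LKO livers and 1.04, -0.18 and 0.01 in tumors. The order of the groups was WT, N-LKO and tumor, with WT replicate 3 just above N-LKO replicate 3 and with tumor replicate 1 just under the N-LKO livers. Counting each gene by its length changed part of this. With the log2 of summed CPM per kilobase the means were 1.65 and 1.53 under HFD, where the groups then overlapped, and 0.938, 1.18 and 0.0780 for WT, N-LKO and tumor under WD, so that N-LKO liver stood above WT liver. In the WT livers that sum is made up most of Clec4g and Plvap, the members with the highest level per length, while the mean of logs gives each gene of a class equal weight.

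**Figure D4:**
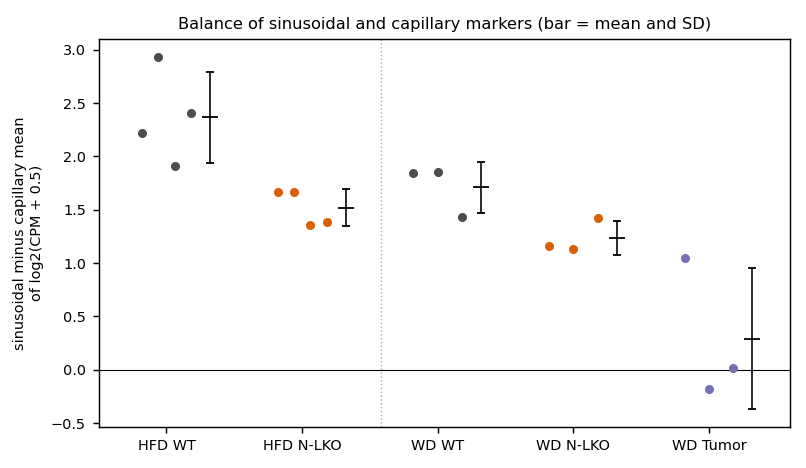
Sinusoidal minus capillary mean of log2(CPM + 0.5) on the y axis in each library of the 5 groups, with bars for the mean and SD and a dotted line between the separately scaled diets. Values were lower in all HFD N-LKO than in all HFD WT livers, where Cd34 and Vwf rest on few counts, and tumor replicates 2 and 3 lay near 0.

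Ratios between members do not depend on library scaling. Cd34 per Pecam1, per unit length, was 0.0996 ± 0.0331 in WD WT livers, 0.243 ± 0.00562 in N-LKO livers and 0.365 ± 0.0590 in tumors (SD, n = 3 each), and the 3 groups did not overlap. Under HFD it was 0.0745 ± 0.0544 in WT and 0.223 ± 0.135 in N-LKO livers (n = 4 each), with overlap. Clec4g per Stab2 was 1.91 ± 0.515, 1.66 ± 0.146 and 0.888 ± 0.398 in WD WT livers, N-LKO livers and tumors, with every tumor (at most 1.30) below every liver (at least 1.41). Stab2 per Pecam1 was 1.35 ± 0.0605, 1.38 ± 0.238 and 0.546 ± 0.346, and tumor replicate 1, at 0.944, was nearest to the livers. Vwf per Pecam1 was 0.157 ± 0.0340 in WT livers, 0.218 ± 0.0153 in N-LKO livers and 0.0966 ± 0.0514 in tumors, where the tumors overlapped the WT livers. Under HFD it was 0.0433 ± 0.0175 in WT and 0.0992 ± 0.0143 in N-LKO livers (n = 4 each), with no overlap. Pecam1 per Kdr under WD was 0.719 ± 0.120, 0.834 ± 0.221 and 1.46 ± 0.212. The 2 markers of all endothelium thus differed in the tumors.

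**Figure D5:**
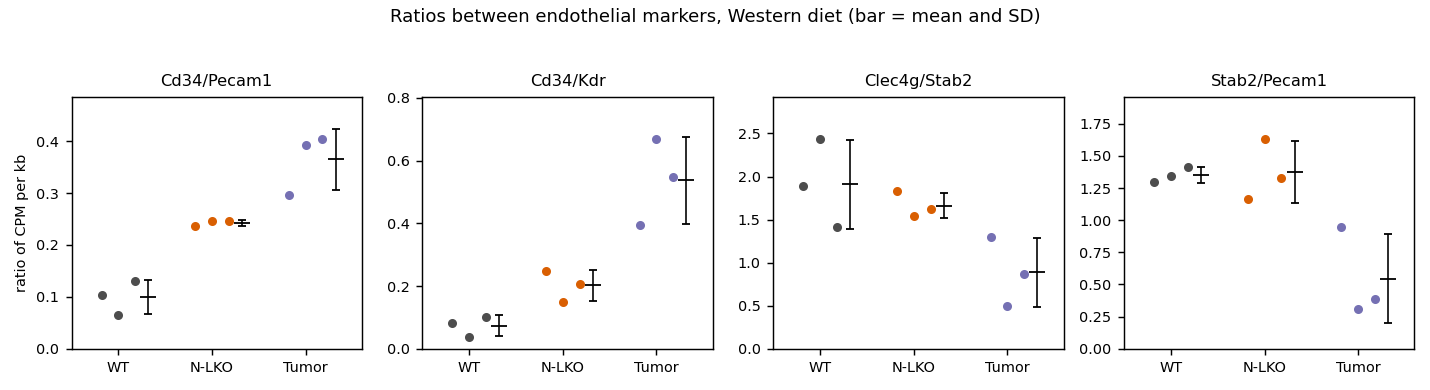
Ratio of CPM per kilobase between pairs of endothelial markers in WD libraries, with 1 point per library and bars for the mean and SD (n = 3 per group). Cd34 per Pecam1 separated all 3 groups, and Clec4g per Stab2 and Stab2 per Pecam1 were lowest in tumors.

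Within groups, the members varied partly together. After each gene's group mean was removed, the highest Pearson correlations over the 17 libraries were 0.81 between Stab2 and Gpr182, 0.76 between Lyve1 and Gpr182 and 0.66 between Stab2 and Clec4g, and the lowest was -0.53 between Clec4g and Cd34. These points share libraries and depth and are given as descriptions. Of 13008 genes with at least 1 CPM on average in both tables, those most like the sinusoidal mean were Heatr1 (r = 0.94), Pfkfb1 (0.89), Slc25a37 (0.88), Lyst (0.88) and Setmar (0.87). Those most like the capillary mean were Myadm (0.88), Bivm (0.87), Acvrl1 (0.83), Terf1 (0.82) and Mtf2 (0.81). Both lists are descriptions over 17 libraries in 5 groups.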

How the data were processed

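Bulk RNA-seq of mouse liver and liver tumor gave 1 table per diet, 8 libraries under HFD and 9 under WD. For every gene the authors deposited an estimated count, derived from single-end reads of rRNA-depleted RNA. The submitters' processing notes name STAR, Partek and mm9, while 96.8% and 96.4% of gene positions match GRCm38, the build of all coordinates given here. Strand use in counting was not given in the sources used here, so genes overlapping on the other strand (Gtpbp3 with Plvap, Nt5dc2 with Stab1, Zbtb39 with Gpr182, and antisense genes with Cd34, Clec4g and Stab2) may not be separable from them. Counts were rounded, since 69.7% and 66.6% of values were whole, filtered with filterByExpr, scaled by TMM and tested with edgeR 4.0.16 (quasi-likelihood, Benjamini-Hochberg adjusted p under 0.05) in R 4.3.3, each diet on its own. The WD fit held all 9 libraries and the interaction fit 14 livers. SE was taken from the fold change and its F statistic and is approximate. Alternatives used DESeq2 1.42.0, limma-voom 3.58.1, other scaling and filters, a length and GC offset, a replicate block and leaving out each library. List counts with DESeq2, with limma-voom and without tumor replicate 1 or WT replicate 2 were added after seeing the data. Scripts were tested on simulated data. The members and gene lists were chosen with earlier results of these data known. The text names all 10 members, genes called in a list where 5 or fewer were, and otherwise up to 6 by smallest p. Ptprb and Ctsl are named as well, as list genes that went the other way without overlap. The labels call the samples biological replicates but do not name the animals. Each p-value sets a group difference against the spread between these samples, which the main fits treated as independent. This holds for tumors and N-LKO livers too, though they may share mice. Depth limits Cd34 and Vwf most.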

Additional observations from a re-analysis of the deposited data

Results flagged for a closer look

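Gpr182 in HFD N-LKO livers had 1 library apart from the others. Replicate 4, at 9.44 CPM, stood above the other 3 by 0.908 of the group's whole range, past the 95% critical value of Dixon's test for 4 samples. In all, 20 sets of 4 values were examined, those of each member in HFD WT and in HFD N-LKO livers. The sets share these livers, so they are not independent. Chance alone puts about 1 in 20 sets past that value.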

How the results depend on the processing

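The count of members past the threshold under HFD (2) was 1 with no filter on low counts, 4 with DESeq2, 1 with the length and GC offset, 1 with the replicate block, 0 with the block and that offset together, and 0 to 3 with 1 library left out. Between tumor and N-LKO liver (0) it was 3 with DESeq2 and 0 to 5 with 1 library left out. Between tumor and WT liver (3) it was 2 with the length and GC offset (Clec4g at an adjusted p of 0.051), 1 in the fit of only the 2 groups and 1 to 5 with 1 library left out. In the interaction (0) it was 1 with DESeq2 and 0 to 1 with 1 library left out. The cause of these changes was not tested. By summed CPM per kilobase in place of the mean of logs, the class difference went from 2.37 to 1.65 within HFD WT livers and from 1.71 to 0.94 within WD WT livers.

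Over all genes, the 652 calls under HFD were 1000 with DESeq2, 261 with the length and GC offset, 139 with the block and offset, and 179 (without WT replicate 2) to 597 with 1 library left out. They were also 181, 225, 276 and 322 without N-LKO replicate 1, WT replicate 4, N-LKO replicate 3 and N-LKO replicate 4. The 89 calls between tumor and N-LKO liver were 1021 with DESeq2, 18 with limma-voom, 58 with a mean of at least 1 CPM, 40 with the block and offset and 29 in the fit of only the 2 groups. Without N-LKO replicates 2, 1 and 3 they were 3, 5 and 6, without WT replicates 3 and 1 they were 26 and 27, and without tumor replicates 3 and 2 they were 30 and 52. The 2653 calls between tumor and WT liver were 1766 with the block and offset, 705 in the fit of only the 2 groups and 569 to 3819 with 1 library left out. They were 1218, 1494, 1531 and 1654 without WT replicate 1, tumor replicate 2, WT replicate 3 and N-LKO replicate 3. The 257 calls in the interaction were 981 with DESeq2, 1 with the length and GC offset, and 22 (without WD N-LKO replicate 3) to 330 with 1 library left out. The 0 calls between the WD livers were 100 with DESeq2 and 6 in the fit of only the 2 groups.

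Directions turned only for members with log2 fold changes near 0 and for the interaction. In WD N-LKO against WT liver, Stab1 was -0.0019 with DESeq2 size factors, -0.0020 with DESeq2 and -0.020 with no filter, Stab2 -0.0097 with no filter, and Lyve1 -0.069 with limma-voom, -0.0016 with the offset, -0.0027 with the block and -0.072 with both. In tumor against WT liver, Kdr was -0.0062 with no filter, and Plvap -0.0053 with DESeq2 size factors and with DESeq2, -0.027 with no filter, -0.026 with limma-voom, -0.0026 with the block and -0.0069 in the fit of only the 2 groups. The Plvap interaction was 0.17 with the offset and 0.20 with the block and offset. With 1 library left out, Lyve1 ran from -0.079 to 0.45 under HFD. In WD N-LKO against WT liver, Stab1 ran from -0.033 to 0.062, Stab2 from -0.048 to 0.12, Lyve1 from -0.23 to 0.43 and Pecam1 from -0.12 to 0.20. Against N-LKO liver, tumor Stab1 ran from -0.16 to 0.044 and Lyve1 from -0.26 to 0.39. Against WT liver, tumor Stab1 ran from -0.18 to 0.053, Lyve1 from -0.043 to 0.32, Kdr from -0.094 to 0.21 and Plvap from -0.14 to 0.22. The interaction ran from -0.52 to 0.29 for Cd34, -0.37 to 0.33 for Lyve1 and -0.20 to 0.16 for Plvap.

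Same-numbered replicates correlated at -0.12 to 0.11 and share only a number. With the replicate block, genes past the threshold went from 652 to 494 under HFD, from 89 to 36 between tumor and N-LKO liver, from 2653 to 1860 between tumor and WT liver and from 257 to 0 in the interaction. Low counts limit Cd34 and Vwf under HFD.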
